A study of Drosophila melanogaster with 12 samples.

Results

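The 10 entries described here are insertions of the retrotransposon copia with the highest normalized read counts of their family, and their RNA was followed across 12 libraries of Drosophila larvae. The table holds 41081 features, of which 3840 are transposable element (TE) insertions and 36 are copia insertions. The 10 were selected on the values described here, namely the mean normalized read count over the 12 libraries, and they are exactly the 10 highest of the 36. The lowest of them, FBti0019117, had a mean of 46203, and the 3 copia insertions just below it were FBti0020108 with 44698, FBti0019136 with 44551 and FBti0018969 with 44489. The 10 are named here by their FlyBase or table identifiers, in order of their mean: FBti0018968-RA (symbol copia{}837), FBti0018967-RA (copia{}631), FBti0019364-RA (copia{}1349), FBti0019586-RA (copia{}67), FBti0019151-RA (copia{}342), RR48347_transposable_element-RA, FBti0019113-RA (copia{}298), RR48532_transposable_element-RA, FBti0019568-RA (copia{}49) and FBti0019117-RA (copia{}302). Below, the end of an identifier is left off.

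copia is a long terminal repeat (LTR) retrotransposon, a mobile element that copies itself through RNA. Its RNA runs from one LTR to the other and encodes a Gag protein, which forms particles around the RNA, together with a protease, a reverse transcriptase and an integrase. The element took its name from the abundance of its RNA in fly cells, and it gave its name to the Ty1/copia group of LTR retrotransposons. *ISWI* encodes the ATPase of several chromatin remodeling complexes of the fly, among them NURF, ACF and CHRAC, which move nucleosomes along DNA.

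The larvae were whole animals of the third instar, raised at 25 °C, and each library was made from a pool of larvae. Control females and control males were wild type (+/+), and mutant females and mutant males carried the allele pair Iswi1/Iswi2, with 3 libraries in each of the 4 groups. The mutants were in a *yw* background and were picked from a balanced cross as larvae without the GFP of the CyO balancer, so strain background and genotype cannot be told apart in any comparison below. The copies of copia that a strain carries can also differ between strains, as a matter of background. The known transcripts of the table are not paired here with gene names, so the *ISWI* transcript, markers of tissues and the pathways that silence transposons were not analysed here.

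The reads recovered from the normalized counts summed, over all features of a library, to between 89290368 and 119202607. The size factors were between 0.798 and 1.59. A read that fits several features may enter this sum more than once. A normalized count is the number of reads of a feature divided by the size factor of its library. Reads from copies of one family share sequence, and how reads that fit several copies were counted is not given in the sources used here, so the 10 insertions are not 10 independent measurements. Copy lengths were not available here, so levels of different copies are compared per copy and not per length. In whole larvae, more RNA per cell and more cells with the RNA cannot be told apart. Control males replicate 2 and mutant males replicate 2 had the fewest features without a read, 9.32% and 8.46%, against 13.0% to 21.0% in the other libraries. The part of these libraries in the results was not tested, and values without each library are given where they change a result.

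FBti0018968 had the highest mean of all 36 copies, 53515. Its normalized counts were 19350, 20005 and 26579 in control females and 18589, 12886 and 13720 in control males. The mutant females had 86773, 66392 and 55088, and the mutant males 125563, 125166 and 72073. Every mutant library lay above every control library, and every control male library lay below every control female library. Among mutant males, replicate 3 lay well below replicates 1 and 2 and between the mutant female libraries.

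FBti0018967 had the second highest mean, 52405, and the widest gap between the genotypes. It was at 9464, 10144 and 13963 in control females and at 10498, 8221 and 7704 in control males. It reached 86796, 80251 and 58369 in mutant females and 135294, 137123 and 71038 in mutant males. The value of 137123 in mutant males replicate 2 was the highest of any of the 10 insertions in any library. The control sexes overlapped, and so did the mutant sexes, where replicate 3 of the males lay below replicates 1 and 2 of the females.

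FBti0019364, next by mean, had counts of 11651, 11238 and 15730 in control females and of 11032, 8678 and 8296 in control males. Its counts were 91226, 69095 and 57450 in mutant females and 127248, 127950 and 77165 in mutant males. The genotypes did not overlap in either sex, and mutant males replicate 3 again lay between replicates 1 and 2 of the mutant females.

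FBti0019586 was at 11958, 11625 and 16144 in control females and at 11532, 8868 and 8554 in control males. In mutant females it was at 71863, 65743 and 55363, and in mutant males at 123876, 124464 and 73393. It was the only one of the 10 insertions whose mutant male libraries all lay above its mutant female libraries, by a margin of 73393 against 71863. In mutant females replicate 1 it was the lowest of the 10, at 85.7% of the median of the other 9.

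FBti0019151, RR48347, FBti0019113, RR48532, FBti0019568 and FBti0019117 had means between 46203 and 47995 over the 12 libraries. Control females had group means of 12028 to 13350 for these copies, and control males 8877 to 9940. Mutant females had 63298 to 67605, and mutant males 98225 to 104095. For FBti0019117, the SD of the 3 libraries was 2394 and 1603 in the control sexes, females first, and 15935 and 26402 in the mutant sexes. The group means of these 6 copies thus lay closer together than the libraries of a group. Since the libraries move all copies together, the order of the copies is given within each library below.

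The libraries moved the 10 insertions together. Between 2 insertions, Pearson's r of log2(normalized count + 1) over the 12 libraries was 0.990 or more in all 45 pairs. With the group means taken out, it was still between 0.903 and 0.999, with a median of 0.978. These values are a description, since the insertions share sequence and libraries.

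**Figure D1:**
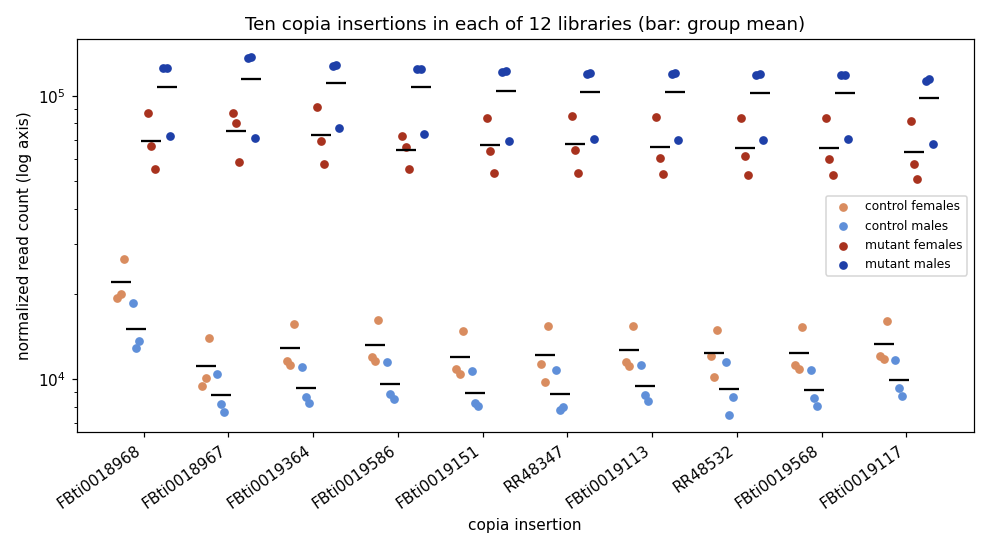
Normalized read counts of the 10 copia insertions, on a log axis, with a point for each of the 12 libraries and a bar for the mean of each group of 3. All mutant points, from 50992 upwards, lie above all control points, which reach 26579, and mutant males replicate 3 lies among or just above the mutant females.

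Genotype was compared within each sex. In females, the mean of mutants was between 3.16 and 6.71 times that of controls, with a median of 5.26 over the 10 insertions. In males, the ratio was between 7.14 and 13.0, with a median of 11.1. FBti0018968 had the smallest ratio in both sexes and FBti0018967 the largest. The gain in counts was more even than the ratio. A copy gained 47440 to 63948 in females, and 88284 to 105677 in males.

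With limma on log2(normalized count + 1), adjusted by the Benjamini-Hochberg method over 35284 features, all 10 insertions were higher in mutant females, where 7.12% of the features tested were called higher. All 10 were also higher in mutant males, where 7.11% of features were called higher. A feature was called at an adjusted p under 0.05, and all 10 insertions passed the filter on low counts. The mutant libraries weigh most in the mean that selected the insertions, so nothing is read from these 2 counts. The same holds for the adjusted p of single insertions and the counts without overlap that follow in this paragraph. The log2 fold changes of FBti0018968 were 1.65 (SE 0.27, adjusted p = 0.00312) in females and 2.81 (SE 0.27, adjusted p = 0.000100) in males. Those of FBti0018967 were 2.75 (SE 0.28, adjusted p = 0.000188) in females and 3.65 (SE 0.28, adjusted p = 2.27e-05) in males. The medians of the 10 were 2.38 and 3.45, beside medians over all features tested of 0.00 in females and -0.10 in males, and over TE insertions of -0.07 and 0.38. All 10 insertions had mutant libraries above all control libraries in females and in males, where 17.5% and 14.5% of the features tested did.

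**Figure D2:**
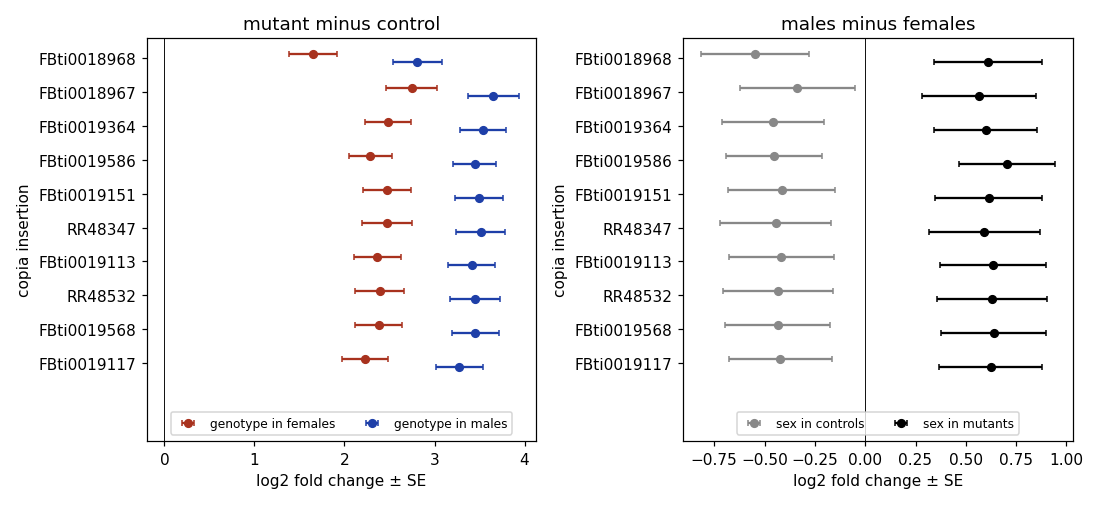
Log2 fold changes with their SE for each of the 10 insertions, from limma, mutant minus control on the left and males minus females on the right. The genotype differences are all above 0 and larger in males, between 2.81 and 3.65, and the sex differences are between -0.55 and -0.34 in controls and between 0.57 and 0.70 in mutants, where no insertion passed the threshold.

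Genotype was also tested on the family as a whole, summed over all 36 insertions and not only over the 10 that were selected. The sum holds the 10 insertions, and copia was taken up with earlier results of these data known. The study also names copia among the families higher in mutants. The adjusted p values below therefore do not test the choice of this family, and no independent support is read from them. The copia sum was 304366, 299815 and 415211 in control females and 301965, 226414 and 228966 in control males. It was 2233617, 1528092 and 1349088 in mutant females and 3191211, 3171838 and 1776886 in mutant males. Every mutant library lay above every control library of its sex. Of the single TE insertions tested, 26.6% in females and 27.6% in males had mutant libraries all above controls. The log2 fold change was 2.31 in females (95% interval 1.73 to 2.89, limma adjusted p = 2.97e-06 over 150 families) and 3.39 in males (95% interval 2.81 to 3.97, adjusted p = 1.57e-08). Of the 150 families, 39 were called higher and 18 lower in mutant females, and 41 were called higher and 4 lower in mutant males. Families were taken from the symbols, so an insertion whose symbol names no family counts as a family of its own. RR51007, described below, is such an insertion and is not in the copia sum. If a read was counted at several copies, the sum holds it more than once, and the fold change is that of the sum as deposited.

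The share of copia in the normalized counts moved with its sum. If reads were counted at several copies, these shares hold them more than once, so they are not shares of the RNA of the larvae. Of the normalized counts at TE insertions, copia held 34.6% to 42.6% in control females and 28.0% to 36.2% in control males. The mutant females had 59.1% to 68.3% and the mutant males 63.2% to 72.4%. Of all normalized counts, copia held between 0.202% and 0.465% in controls and between 1.23% and 4.11% in mutants. The sum of all other TE insertions was also higher in mutants, 999848 ± 56517 (SD, n = 3) against 558287 ± 18039 in females and 1221403 ± 192215 against 511847 ± 83389 in males. This sum includes RR51007, whose means were 59403 against 11216 in females and 93889 against 8376 in males. The 10 insertions held between 37.5% and 42.4% of the copia sum in every library, so their joint part of the family was about the same in all groups.

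**Figure D3:**
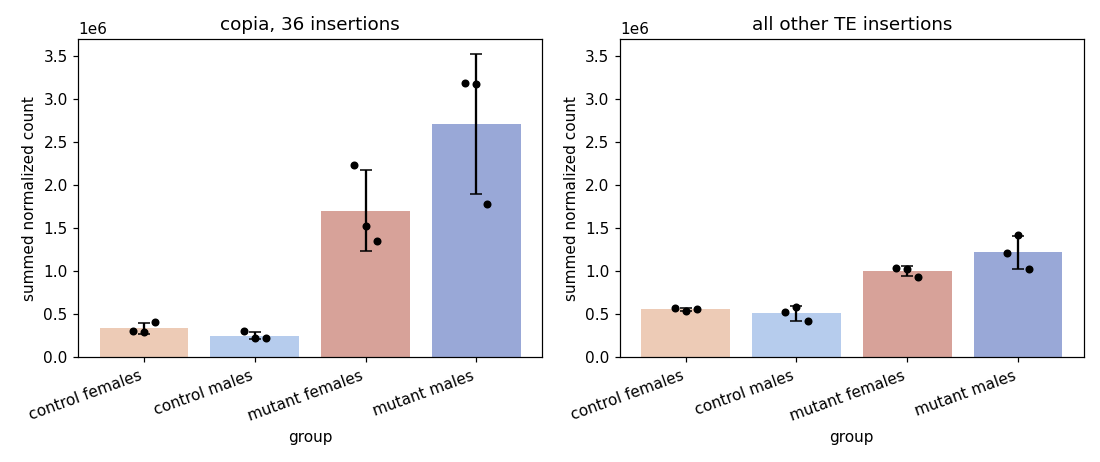
Summed normalized counts of the 36 copia insertions and of all other TE insertions, with a point for each library, a bar for the mean and a line for the SD of the 3 libraries of a group. In these sums as deposited, where a read may be counted at several copies, copia exceeds all other TE insertions together in every mutant library. It stays below them in every control library. The other TE insertions include RR51007, whose symbol names no family.

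Other LTR retrotransposons are given for comparison, each by its family sum. Of 7 families chosen for this, 5 were called higher in both sexes, beside the 39 and 41 of 150 given above. Most of the 7 were taken from families that the study names as changed, so their count follows from that choice. A family of the same Ty1/copia group, whose name is a bare number and which had 13 insertions, was called higher in both sexes, by 1.96 in females (limma adjusted p = 0.000113) and by 1.73 in males (adjusted p = 0.000362) on the log2 scale. frogger, also of the Ty1/copia group and with a single insertion, had group means between 8.61 and 15.5 and was not called in either sex.

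Among families of the Gypsy group, flea had a mean of 118968 in mutant females against 18862 in controls, and of 170538 against 17876 in males, with log2 fold changes of 2.65 and 3.23. Tirant was low in controls, at 376 and 203, and reached 6687 in mutant females and 7695 in mutant males, with log2 fold changes of 4.14 and 5.22. Burdock was also called higher, by 1.11 in females and 1.68 in males. Another Gypsy family, whose name is also a bare number, had 66 insertions and log2 fold changes of 1.14 and 1.39. HMS-Beagle was lower, with 2849 in mutant females against 19069 and 4179 in mutant males against 17574, and log2 fold changes of -2.74 and -2.10. In counts, no other family named here came near the copia sum.

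The sexes were compared within each genotype. In controls, the male mean of the 10 insertions was between 0.685 and 0.787 times the female mean. In mutants the order was the other way round, with a male mean between 1.52 and 1.67 times the female mean. Neither difference passed the test for any of the 10 insertions.

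In controls, the log2 differences of males minus females were between -0.55 and -0.34, and limma called 0 of the 10, where 10% of the features tested were called. No insertion had an unadjusted p under 0.05 there, and DESeq2 and edgeR, run on recovered reads, also called 0. For 5 insertions, FBti0018968, FBti0019364, FBti0019586, FBti0019568 and FBti0019117, all control male libraries lay below all control female libraries, as they did for 7.48% of the features tested. In those 5, the highest male library was replicate 1. The copia sum differed by -0.43 on the log2 scale (95% interval -1.004 to 0.15, adjusted p = 0.582), and by -0.27 without control females replicate 3. This interval holds a ratio of equality and also a male level well under that of females.

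In mutants, the log2 differences of males minus females were between 0.57 and 0.70, and limma called 0 of the 10, where 3.21% of features were called. The unadjusted p was under 0.05 for 8 of the 10, and DESeq2 and edgeR called 0. Only FBti0019586 had no overlap between the mutant sexes, as had 9.91% of the features tested with males higher. It was set apart by mutant females replicate 1, where it was at 71863 and the other insertions at 81297 or more. Its share of the copia sum differed between the mutant sexes by 0.05 on the log2 scale, and by -0.08 without that library. The copia sum differed by 0.66 (95% interval 0.08 to 1.23, adjusted p = 0.477). Mutant males replicate 3 bore on this comparison. Without it the differences were between 0.84 and 0.96, FBti0019586 alone was called (adjusted p = 0.0392), and the copia sum differed by 0.94 (adjusted p = 0.142).

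The difference between the sexes in the effect of genotype was tested as an interaction. For the 10 insertions it was between 0.90 and 1.16 on the log2 scale, larger in males, with adjusted p from 0.201 to 0.448. limma called 0 of the 10, where 0.799% of features were called, and all 10 had an unadjusted p under 0.05. edgeR called 0 and DESeq2 called 1, FBti0019586 (adjusted p = 0.0290), the insertion that was low in mutant females replicate 1. For the copia sum the interaction was 1.08 (SE 0.39, 95% interval 0.26 to 1.90, limma adjusted p = 0.159). The interval lies above 0 but is not adjusted for the number of families. Without mutant males replicate 3 the interaction of the sum was 1.36 (adjusted p = 0.0526). A larger effect in males was therefore not called, although the point estimate was above 0 for each of the 10 insertions.

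FBti0018968 stood apart from the other 9 in controls. It was the highest of the 10 in every control library, at 150% to 184% of the median of the other 9. The other 9 lay close together there, and their coefficient of variation was between 3.99% and 7.32% in a library, against 16.8% to 25.5% with FBti0018968 included. In mutants FBti0018968 was at 103% to 105% of the median of the others, and its rank was 3 or 4. The coefficient of variation in mutants was between 3.72% and 9.92% over all 10, and between 3.92% and 10.5% over the other 9. Its excess over that median, in normalized counts, was between 4283 and 11177 in controls and between 1810 and 5927 in mutants.

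FBti0018967 took the other course. In controls it was among the 3 lowest of the 10, at 81.2% to 94.7% of the median of the others. In mutants it was at 101% to 125%, ranked first in 4 of the 6 libraries, and had rank 2 in mutant females replicate 1 and rank 4 in mutant males replicate 3. FBti0019117 had rank 2 or 3 in every control library, at 105% to 109%, and rank 9 or 10 in every mutant library, at 89.8% to 97.0%. By the mean of the control groups alone, 8 of the 10 insertions were among the 10 highest copies, and FBti0019151 and FBti0018967 were not. By the mean of the mutant groups alone, all 10 were.

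**Figure D4:**
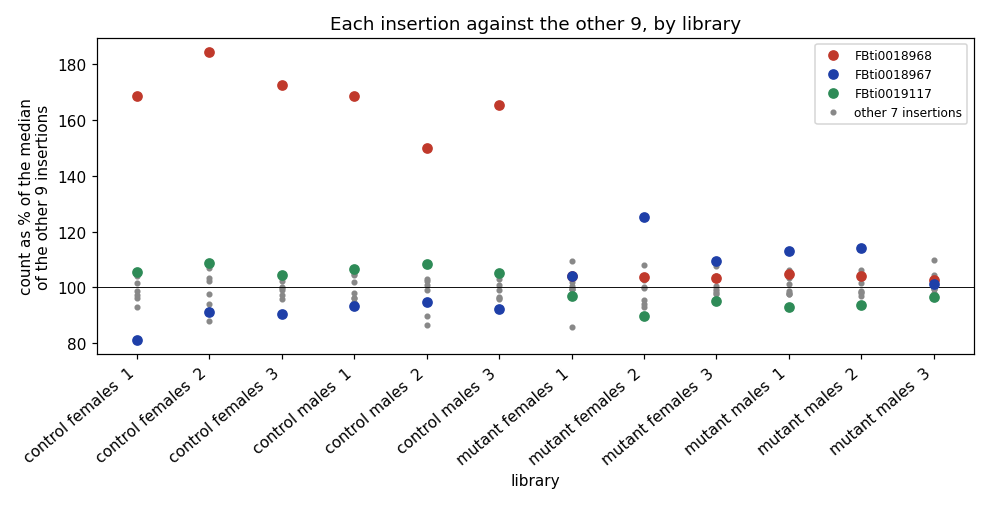
Normalized count of each insertion as a percentage of the median of the other 9, for each of the 12 libraries. FBti0018968 stands at 150% to 184% in the 6 control libraries and at 103% to 105% in the 6 mutant libraries, while FBti0018967 and FBti0019117 change sides of the line at 100%.

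These changes were tested as the share of the copia sum that a copy held, with limma on the log2 share, adjusted over 2298 TE insertions of families with at least 2 insertions tested. In females the share of 5 of the 10 differed between the genotypes, beside 33.1% of the TE insertions tested. In males it differed for 2 of the 10, beside 31.6%. Nothing is read from these counts, and the count in males was between 1 and 5 under the other settings. The share of a copy that gained in mutants is tied to the selection by the mean.

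The share of FBti0018968 fell from 6.48% ± 0.17 (SD, n = 3) of the copia sum to 4.10% ± 0.23 in females, a log2 change of -0.66 (SE 0.05, adjusted p = 4.72e-06). In males it fell from 5.95% ± 0.24 to 3.98% ± 0.07, a change of -0.58 (adjusted p = 1.92e-05). The share of FBti0018967 rose in females from 3.29% ± 0.15 to 4.49% ± 0.70, a change of 0.44 (adjusted p = 0.00470). In males it was 3.49% ± 0.13 and 4.19% ± 0.17 (log2 difference 0.26, adjusted p = 0.0533) and was not called. FBti0019364 gained in females by 0.18 (adjusted p = 0.0153) and in males by 0.15 (adjusted p = 0.0319). The call in males was lost without control males replicate 1 (0.14), control males replicate 3 (0.14) or mutant males replicate 3 (0.12). FBti0019151 and RR48347 gained in females, each by 0.16 on the log2 scale. The adjusted p of RR48347 was 0.0484, and 10 of the 14 other settings put it over the threshold. Shares are parts of the same sum, so when a copy holds less of it, the others together hold more. FBti0018969, described below, had a mean share of 8.14% in control females but 2.97% in mutant females. Its male means were 8.19% for controls and 2.95% for mutants. How much of the gains above follows from the lower shares of FBti0018968 and FBti0018969 was not tested.

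Between the sexes, no share was called in controls, where 1.52% of TE insertions were, or in mutants, where 1.26% were. The unadjusted p was under 0.05 for FBti0018968 in controls, with a log2 difference of -0.12, and for none of the 10 in mutants. The log2 differences in share between the sexes were at most 0.12 in size for the 10 insertions.

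FBti0018969, ranked 13 by mean among the 36 copies, had the same course as FBti0018968 and to a greater extent. It was the highest of all 36 copies by the mean of the control groups, with 26067, 25812 and 30026 in control females and 24272, 19303 and 18329 in control males. It had 63584, 46888 and 40526 in mutant females and 91847, 93900 and 53316 in mutant males. Against the median of the 10 insertions it stood at 195% to 235% in controls and at 73.2% to 77.5% in mutants. Its share of the copia sum fell by 1.45 on the log2 scale in females (adjusted p = 3.57e-07) and fell by 1.47 in males (adjusted p = 5.98e-07). The ratio of its mutant to its control mean was 1.84 in females and 3.86 in males, the smallest of the 28 copies with a mean above 10000 and no library at 0. FBti0020108 and FBti0019136, which lay between it and the selection by mean, did not share this course. Their shares rose in females by 0.23 and 0.21 on the log2 scale (limma adjusted p = 0.00910 and 0.0159). In males the log2 differences were 0.14 and 0.11 and were not called.

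**Figure D5:**
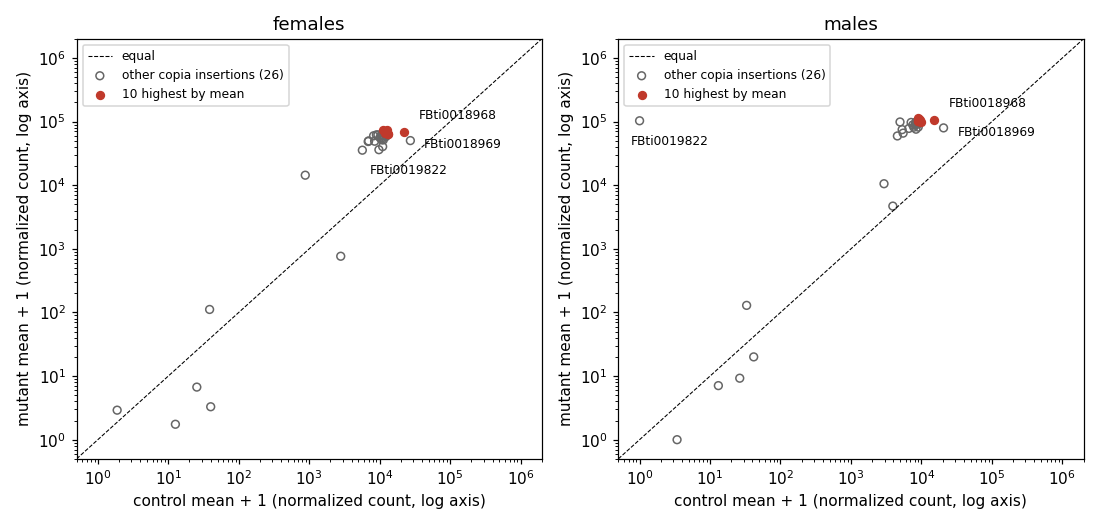
Mean of the mutant libraries against mean of the control libraries, each plus 1 and on log axes, for all 36 copia insertions, females on the left and males on the right. The 10 selected insertions form a tight group above the line of equality, with FBti0018968 to the right of the other 9 and FBti0018969 further right.

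The other 26 copies fell into 19 with a mean above 10000 and 7 with means from 1.30 to 7191. Of the 25 that could be tested, 18 were called higher in mutant females and 1 lower, and 18 were called higher in mutant males and none lower. The median log2 fold change over these 25 was 2.43 in females and 3.42 in males, close to the medians of the 10. Among the 18 with a mean above 10000 and no library at 0, the ratio of mutant to control means was 1.84 to 7.29 in females and 3.86 to 19.9 in males. The 10 selected insertions lay inside that range in both sexes.

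Outside copia, 23519 features with a mean of at least 100 were compared with the sum of the 10 insertions by Pearson's r of log2(normalized count + 1) over the 12 libraries. The most alike was the TE insertion RR51007, whose symbol names no family, with r = 0.9998 and a mean of 43221. Its means were 11216 and 8376 in the control sexes, females first, and 59403 and 93889 in the mutant sexes, which is the scale of the copia insertions themselves. The next 4 were assembled transcripts of a single locus, MSTRG.17532.1, MSTRG.17532.4, MSTRG.17532.7 and MSTRG.17532.3, with r between 0.996 and 0.999. MSTRG.17532.1 had means of 8024 and 5891 in the control sexes and of 47493 and 74018 in the mutant sexes. These values describe likeness over 12 libraries in 4 groups, and whether these features share sequence with copia was not tested.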

How the data were processed

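Each library was depleted of ribosomal RNA, and, per the authors, Trimmomatic 0.39, HISAT2 2.2.1 (genome BDGP6) and StringTie 2.1.5 served for trimming, mapping, and assembly with quantification. The deposited values are a signal, read counts per feature divided by a size factor per library in DESeq2 1.32.0. Whole reads were recovered from the step that 1 read is worth (100% of values up to 1000 reads whole within 0.01). Groups came from the library titles. The main test was limma 3.58.1 (R 4.3.3) on log2(normalized count + 1) with an intensity trend and a mean per group, over the 35284 features with at least 10 in at least 3 libraries. Labels do not say whether libraries came from separate crosses, so p-values measure the spread between libraries. DESeq2 1.42.0 and edgeR 4.0.16, run on the recovered reads, and the other settings tried are given in the closing section. The limma fit was checked on simulated counts.

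All 10 insertions are named, with the 3 copies below them by mean, 5 of 7 comparison families and the 5 features most alike. Members and lists were chosen with earlier results of these data known. The test of shares was replaced after the data were seen: an exact permutation test adjusted over the 10 insertions had been planned and was not run, and limma over all TE insertions took its place. Sequences and coordinates of the insertions were not analysed here.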

Additional observations from a re-analysis of the deposited data

How the results depend on the processing

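The copia sum kept its call and direction for genotype in both sexes under all 16 other settings, with log2 fold changes of 2.096 to 2.46 (females) and 3.25 to 3.67 (males), and it stayed uncalled for sex and for the interaction. All 10 insertions were called for genotype in both sexes under every setting run. Since the mutant libraries weigh most in the mean that selected them, nothing is read from this count either. The settings were no filter, a filter in every library, TMM, pseudocounts of 0.5 and 10, DESeq2 and edgeR. They also included the groups compared alone, the replicate block and each library left out. The main test did not pair libraries by replicate number. Correlations of deviations between same-numbered libraries were from -0.02 to 0.19, the highest between control males replicate 2 and mutant males replicate 2. These values do not settle whether same-numbered libraries were handled together. With the replicate block, 10, 10, 0, 0 and 0 insertions were called for genotype in females, genotype in males, sex in controls, sex in mutants and the interaction, and 4 and 3 shares differed by genotype in females and males. Leaving out 1 library gave 0 to 1 insertions called for sex in mutants, where 1 came without mutant males replicate 3. DESeq2 called 1 insertion for the interaction. For shares by genotype in males, leaving out 1 library gave 1 to 4 insertions (1 without control males replicate 1 or 3, 4 without mutant females replicate 1 or 2) and in females 4 to 5. With the share taken of the 10 insertions alone, 5 differed in males and 5 in females. The causes were not tested. With 3 libraries a group and mutant males replicate 3 far below the other 2, the mutant sexes are compared with little precision.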

Other observations

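The copies in this section were chosen after their values were seen, so nothing is read from their adjusted p. FBti0019822 was at 0 in 7 of the 12 libraries, namely control females replicate 1, all control males, mutant females replicates 2 and 3 and mutant males replicate 3. It had 11652 and 17635 in control females replicates 2 and 3, below FBti0018968 in both. It had 108604 in mutant females replicate 1, and 155988 and 153525 in mutant males replicates 1 and 2, above all 10 insertions in these 3 libraries. The 3 mutant libraries that held it also had the 3 highest copia sums, which include it.

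FBti0020021, a copy of lower count, had means of 879 in control females and 14381 in mutant females (log2 fold change 3.81, limma adjusted p = 0.0102), and of 2946 and 10559 in males (2.35, adjusted p = 0.0662). A few copies of low count went the other way. FBti0060309 fell in females from a mean of 39.0 to 2.29 (log2 fold change -4.32, limma adjusted p = 0.0171), and in males its means were 40.7 and 19.0 (adjusted p = 0.392). Its mutant female libraries were at 0, 6.88 and 0, so the size of that fold change depends on the 1 added to each count. FBti0063913 had means of 24.4 and 5.71 in females and of 25.4 and 8.26 in males, and FBti0062096 had 11.6 and 0.748 in females and 12.1 and 6.08 in males. Neither was called in either sex.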
